A study of Rattus norvegicus with 36 samples.

Results

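The comparison described here set the 12 arrays with the highest level of Myh7, the slow myosin heavy chain of muscle, against the 12 with the lowest, out of 36 arrays of rat thyroid tissue. The arrays were chosen by their measured level of Myh7: all were ranked by the Myh7 probe with the highest mean level, the one probe matched to Myh7. The ranking used a measured level and not a treatment, so every difference below is an association with the Myh7 level of an array. The 12 arrays between the high and low ones took no part in the comparison and served for a separate look at the same genes.

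The arrays came from male Sprague Dawley rats that had been given 131I, a beta-emitting iodine isotope that the thyroid takes up, in saline into the tail vein. There were 9 groups of 4 rats, of which 1 group, at 0 kBq, had saline alone, 4 received 9, 88, 170 and 260 kBq, and the other 4 received 340, 760, 1300 and 4700 kBq. All rats were killed by cardiac puncture under anesthesia at 24 h, and RNA of each single thyroid was measured on a 1-colour oligonucleotide array. These were normal rats with no gene altered, and how much neighbouring tissue came with each gland is not given in the sources used here. The study asked how thyroid tissue responds to 131I, whereas the present comparison asks which transcripts go along with slow muscle signal in the same tissue samples. Levels are given as log2 of the processed spot intensity with the array's 75th percentile set to 0, so they compare arrays within a probe and never one probe with another.

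Skeletal muscle fibres are of slow and fast types, which differ in the isoforms of myosin, troponin and calcium pump that they build. Slow fibres and the ventricle of the heart share Myh7, the myosin light chains Myl2 and Myl3, the troponin C of Tnnc1 and the calcium pump Atp2a2, while the slow troponins T and I, Tnnt1 and Tnni1, belong to slow skeletal fibres. The muscles that lie on the larynx, trachea and front of the neck touch the thyroid, and its follicular cells themselves build none of these sarcomeres.

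The Myh7 level, which chose the arrays and is given without a test, ran from -6.48 to 0.27 on the low arrays with a median of -2.24, and from 4.02 to 5.603 on the high arrays with a median of 4.67. The middle arrays lay between 1.04 and 3.998. The step at the lower boundary was from 0.27 in 760 kBq rat 1 to 1.04 in 88 kBq rat 2. At the upper boundary it was from 3.998 in 4700 kBq rat 1 to 4.02 in 0 kBq rat 1, so the middle and high arrays joined without a gap.

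**Figure D1:**
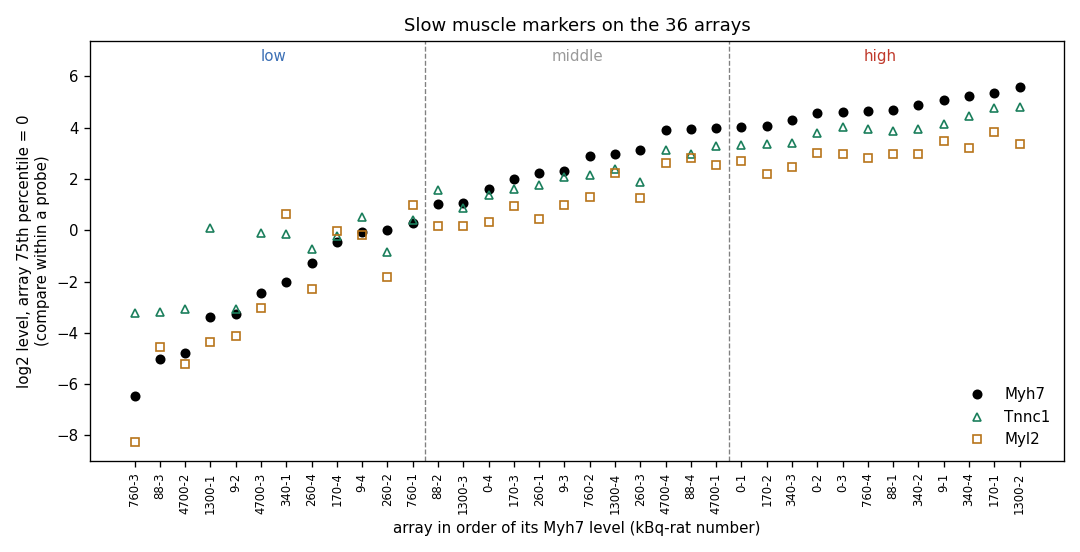
Log2 levels of Myh7, Tnnc1 and Myl2 (vertical axis, array 75th percentile at 0) on the 36 arrays in order of Myh7 (horizontal axis, injected kBq and rat number), with dashed lines at the boundaries of the 12 low, 12 middle and 12 high arrays. Each symbol is 1 array, the levels of the 3 probes are not comparable with each other, and Tnnc1 and Myl2 climb along the order that Myh7 set.

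The high and low arrays were spread over the treatments unevenly. The 0 kBq group gave 3 high arrays and no low one, and the 340 kBq group 3 high and 1 low, while the 260 and 4700 kBq groups gave 2 low arrays each and no high one. The other activities, 9, 88, 170, 760 and 1300 kBq, held both kinds. The labels thus leave part of the Myh7 ranking tied to treatment, and for the 0, 260 and 4700 kBq groups the 2 cannot be told apart within a group. In each group the spread between rats was wide. In the controls the Myh7 level had a lowest value of 1.59, a median of 4.30 and a highest of 4.63, and in the 4700 kBq group these were -4.79, 0.73 and 3.998. Tnnc1 had medians between 0.51 at 260 kBq and 3.66 at 340 kBq. For Myl2 the medians ran from -0.68 at 260 kBq to 2.84 at 0 kBq. No order of the medians by activity was seen for any of the 3 genes, and these levels are given as a description only.

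**Figure D2:**
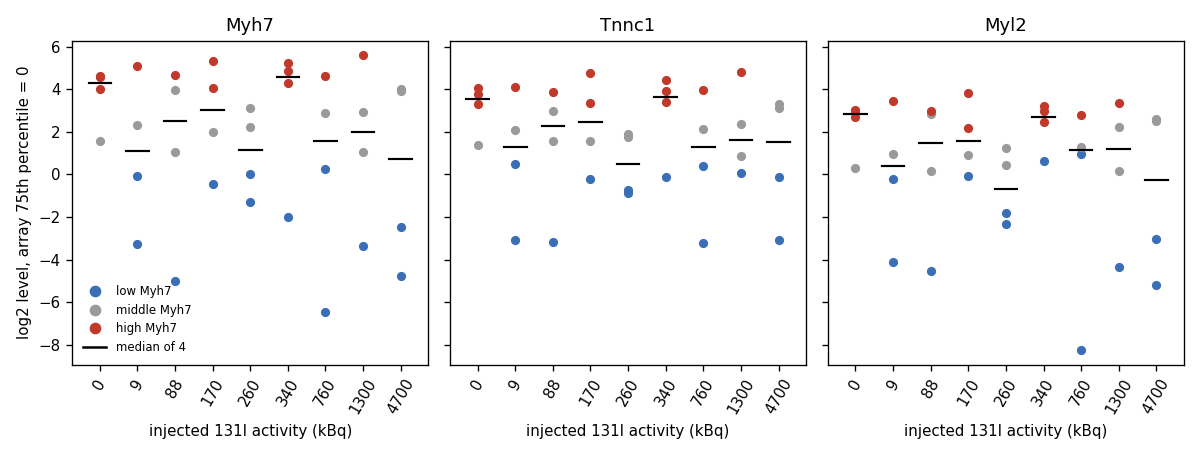
Log2 levels of Myh7, Tnnc1 and Myl2 (vertical axis, array 75th percentile at 0) by injected 131I activity in kBq (horizontal axis), with 1 point a rat, coloured by the Myh7 class of its array, and a black line at the median of the 4 rats. Every group but 0 kBq holds at least 1 low array, and the 260 and 4700 kBq groups hold no high one.

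The samples were also uneven in thyroid tissue itself, which is why the level of Iyd, the iodotyrosine deiodinase that recovers iodide in follicular cells, stood in the model as a covariate. Iyd fell into 2 sets of 18 arrays, one at -0.26 or above and one at -3.28 or below. The low arrays held 5 and 7 of these, and the high arrays 6 and 6. Thyroglobulin, Tg, the precursor of the thyroid hormones, had a lowest level of -4.51, a median of 6.54 and a highest of 7.48 on the high arrays, and -2.83, 5.44 and 7.43 on the low ones. Of 13 follicle genes with a probe, none differed between high and low arrays by the limits used below, and their median difference was -0.09. As Iyd is itself a follicle gene, the covariate takes out differences that go along with it. These values thus cannot show equal thyroid content. Without the covariate, the array mean of the follicle genes, Iyd included, had a median of -0.74 on the high arrays and -2.22 on the low ones. The ranges were -5.28 to 2.14 and -5.34 to 2.46. Slide and scan day did not separate the classes: 5 slides held 1 to 4 high and 1 to 4 low arrays each, and the 2 scan days 5 or 7 of either. The share of probes well above background was 62.6 to 79.0% on the low arrays and 64.2 to 91.0% on the high ones, the top value being 340 kBq rat 4.

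In all, 14 probes of 30365 were higher on the high arrays by at least 1.5-fold with an adjusted p under 0.01, which is 0.0461% of those tested. None was lower, while at an unadjusted p under 0.05 the limma fit had 1933 probes higher (6.37%) and 1387 lower (4.57%). The 14 probes stood for 9 named genes and 4 transcripts without a gene name here. Of the 9 genes, 6 were on the list of slow fibre genes: Myl2, Tnnt1, Tnnc1, Tnni1, Ankrd2 and Atp2a2. The others were Myh6 and Myl4, which were on the list of heart muscle genes, and Myh3, the embryonic myosin heavy chain. On 8 probes, which are 0.0263% of those tested, the lowest high array lay above the highest low array, and no probe showed the opposite. As all arrays are of bulk tissue, fewer muscle fibres and less RNA per fibre cannot be told apart.

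**Figure D3:**
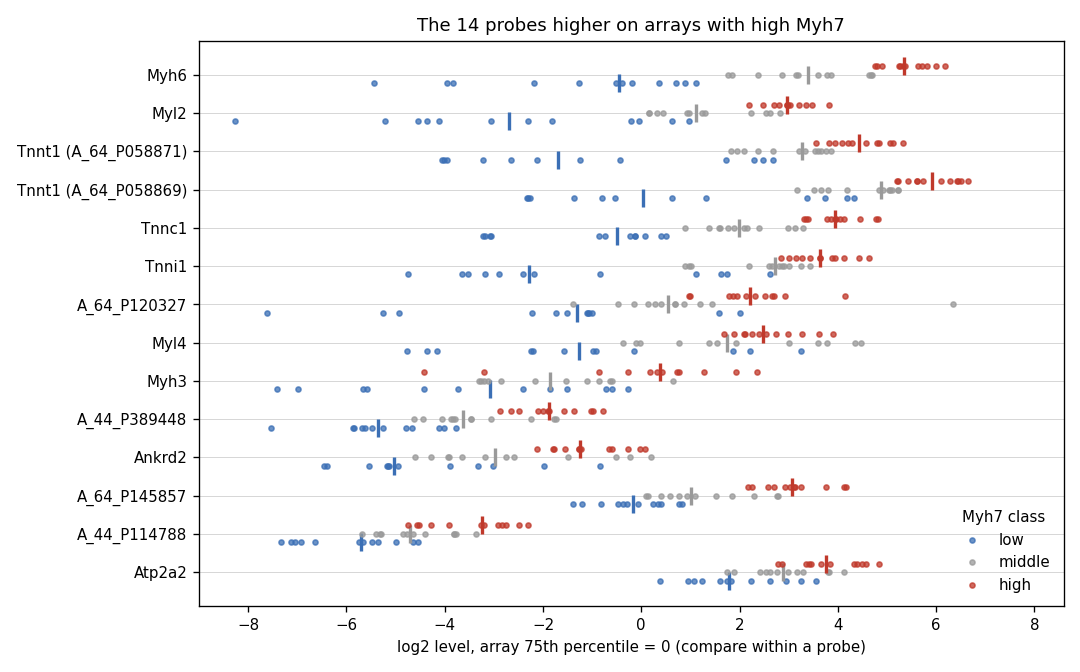
Log2 level (horizontal axis, array 75th percentile at 0, to be compared within a probe) of the 14 probes that were higher on arrays with high Myh7 (vertical axis), with 1 point an array and a bar at the median of the 12 low, 12 middle and 12 high arrays. The middle median lies between the other 2 for all 14 probes, and for Myh6, Myl2, Tnnt1, Tnnc1 and Tnni1 no low array reaches the lowest high array.

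Among the myosin heavy chains, Myh6, the alpha-cardiac form, was at -5.44, -0.45 and 1.11 (lowest, median and highest) on the low arrays and at 4.76, 5.34 and 6.17 on the high ones. The groups did not overlap, and the difference was 6.68 ± 0.55 on the log2 scale (SE, n = 12 and 12; limma with Benjamini-Hochberg adjustment, adjusted p = 1.85e-07), the largest of the 14. Myh6 is the gene next to Myh7 on chromosome 15, with 2861 bases between them in the GRCr8 annotation, and their products are close in sequence. The probe sequences were not used here, so signal of Myh7 RNA on the Myh6 probe was not tested, and the Myh6 value is uncertain to that degree.

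To show the sequences at the gene that set the ranking, at its neighbour and at genes of slow skeletal troponin, the promoter windows of Myh7, Myh6, Tnnt1 and Tnni1 are printed from RefSeq (GRCr8), each with 250 bases before and 50 after the listed start, 5′ to 3′. Of the 9 named genes and Myh7, 8 had such a window, and Tnnc1 and Myl2 are named only. Capitals mark CATTCC on either strand, the MCAT motif of muscle promoters, and CAGCTG, an E-box that reads the same on both strands. The listed starts of Myh7 and Myh6 lie 1657 and 1966 bases inside the annotated genes, while those of Tnnt1 and Tnni1 are at the gene start.
Myh7, chr15:32438145-32438444, minus strand: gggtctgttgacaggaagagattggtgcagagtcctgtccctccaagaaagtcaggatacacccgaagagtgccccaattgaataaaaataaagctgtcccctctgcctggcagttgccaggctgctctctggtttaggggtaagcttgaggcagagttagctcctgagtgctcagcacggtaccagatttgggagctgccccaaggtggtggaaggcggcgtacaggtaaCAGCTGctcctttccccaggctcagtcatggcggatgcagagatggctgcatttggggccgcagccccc
Myh6, chr15:32411648-32411947, minus strand: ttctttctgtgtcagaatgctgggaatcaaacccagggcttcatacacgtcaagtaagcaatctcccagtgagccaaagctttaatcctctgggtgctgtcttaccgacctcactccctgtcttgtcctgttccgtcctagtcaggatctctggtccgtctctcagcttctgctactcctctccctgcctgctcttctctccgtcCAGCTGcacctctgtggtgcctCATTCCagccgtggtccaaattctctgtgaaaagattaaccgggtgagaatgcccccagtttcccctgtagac
Tnnt1, chr1:78348785-78349084, plus strand: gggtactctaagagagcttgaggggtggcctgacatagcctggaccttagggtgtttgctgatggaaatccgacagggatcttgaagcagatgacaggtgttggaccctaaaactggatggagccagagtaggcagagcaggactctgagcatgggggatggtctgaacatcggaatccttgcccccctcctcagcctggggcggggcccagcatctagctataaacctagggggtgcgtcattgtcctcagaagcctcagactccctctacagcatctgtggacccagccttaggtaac
Tnni1, chr13:49781279-49781578, plus strand: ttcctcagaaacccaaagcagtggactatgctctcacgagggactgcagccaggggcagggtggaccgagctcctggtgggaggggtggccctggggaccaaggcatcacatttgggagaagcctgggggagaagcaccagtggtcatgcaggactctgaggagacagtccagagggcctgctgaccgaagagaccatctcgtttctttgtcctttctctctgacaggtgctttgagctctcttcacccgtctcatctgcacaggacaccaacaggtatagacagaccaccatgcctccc

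The Myh7 window holds 1 E-box and no CATTCC, and the Myh6 window 1 of each. The windows of Tnnt1 and Tnni1 hold neither. Over the 8 windows, 1 had CATTCC and 3 had the E-box, beside 14.2% and 15.1% of all 33469 windows of the same length. The third E-box was in the window of Myl4, whose listed start lies 26417 bases inside the annotated gene. All matches were thus in windows with a listed start inside a gene, and the 5 windows with neither motif were at the gene start. The matches are of letters and not shown binding sites, and 8 windows are too few to set against the share.

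Among the light chains, Myl2, the regulatory light chain of slow fibres and the ventricle, was at -8.26, -2.68 and 0.97 on the low arrays and at 2.19, 2.98 and 3.83 on the high arrays. The groups were apart, by 5.73 ± 0.70 (adjusted p = 1.50e-04). Myl4, the light chain of embryonic muscle and the atria, was at -4.77, -1.27 and 3.26 against 1.69, 2.47 and 3.90. Here 3 low arrays lay within the high range, and the difference was 3.84 ± 0.63 (adjusted p = 0.00680). Myl3, the essential light chain of slow fibres, did not pass: its difference of 5.41 had an SE of 1.03 and an adjusted p of 0.0325, with low arrays from -6.99 to 4.39.

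The 3 slow troponin subunits all passed. Tnnc1, which binds calcium in slow and cardiac troponin, had the smallest p of all probes. It was at -3.22, -0.48 and 0.51 on the low arrays and at 3.32, 3.95 and 4.83 on the high ones, a difference of 5.16 ± 0.37 (adjusted p = 2.56e-08). No low array came near the high group. Tnnt1, the slow subunit that ties troponin to tropomyosin, was measured by 2 probes that both passed, with differences of 5.55 ± 0.69 and 5.32 ± 0.67 (adjusted p = 1.53e-04 and 1.66e-04). On A_64_P058869 the low arrays ran from -2.33 to 4.33 with a median of 0.05, and the high arrays from 5.20 to 6.66 with a median of 5.93. For Tnni1, the slow inhibitory subunit, the low arrays ran from -4.75 to 2.63 with a median of -2.29, and the high arrays from 2.84 to 4.63 with a median of 3.64. The gap between the groups was small at its edge but complete, and the difference was 5.06 ± 0.66 (adjusted p = 3.16e-04).

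Calcium handling and stretch genes of slow fibres showed smaller differences with overlap. Atp2a2, the SERCA2 pump that returns calcium to the reticulum, was at 0.38, 1.79 and 3.57 on the low arrays and at 2.79, 3.76 and 4.83 on the high arrays, a difference of 1.91 ± 0.26 (adjusted p = 4.40e-04). Ankrd2, an ankyrin repeat protein of slow and stretched muscle, was at -6.45, -5.04 and -0.83 against -2.12, -1.25 and 0.08, a difference of 3.30 ± 0.50 (adjusted p = 0.00255). For both genes some low arrays lay within the high range. Casq2, the cardiac and slow calsequestrin that stores calcium, had a difference of 2.04 ± 0.42 and an adjusted p of 0.0618. Csrp3, a Z-disc LIM protein, had 2.85 ± 0.65 with an adjusted p of 0.135. For Hspb7, a small heat shock protein of muscle, and Myh7b, a relative of Myh7, the differences were 1.43 and 0.86, both with an adjusted p of 0.224. Tpm3, the slow tropomyosin that many other cells also make, was at -0.23 ± 0.24, and Pln, phospholamban, the brake on SERCA2, at -0.28 ± 0.30, both without a call.

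The slow genes other than Myh7 had 13 members with a probe, of which 6 were higher by the limits, none lower and 7 not past them. Their median difference was 2.85, beside 0.003 over all probes. Tnnc1 and Myl2 were picked as markers together with Myh7, and the rest of the list was chosen with earlier results of these data known, so the count is a description.

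Myh3, whose product is found in developing and regenerating fibres, passed with 1 of its 2 probes. That probe was at -7.42, -3.07 and -0.28 on the low arrays and at -4.43, 0.37 and 2.37 on the high arrays, a difference of 3.45 ± 0.58 (adjusted p = 0.00939). The other probe gave 3.54 ± 0.61 at an adjusted p of 0.0115, just outside the limit. The developmental list, with 2 genes measured, had a median difference of 2.35. The high and low arrays overlapped on both, and with each of the 24 arrays left out in turn the call of the first held in 5 of 24 fits, with adjusted p up to 0.0254. That of Myl4 held in 8 of 24, with adjusted p up to 0.0185. The other 12 calls held in all 24.

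The 4 transcripts without a gene name here are given by probe. A_64_P145857 was at -1.39, -0.17 and 0.83 on the low arrays and at 2.18, 3.07 and 4.16 on the high ones, with a difference of 3.26 ± 0.27 (adjusted p = 1.85e-07), as small a p as that of Myh6. A_44_P389448 was at -7.54, -5.37 and -3.76 against -2.88, -1.88 and -0.77, a difference of 3.40 ± 0.34 (adjusted p = 4.24e-06). On both the groups were apart. A_64_P120327 differed by 4.30 ± 0.65 and A_44_P114788 by 2.50 ± 0.30, with adjusted p of 0.00257 and 1.32e-04, and on these the groups overlapped.

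Of the fast fibre genes, none of the 13 with a probe passed the limits. All 13 differences were positive, with a median of 1.95. At an unadjusted p under 0.05, 12 of 13 were higher, as were 11 of 13 slow genes, beside 6.37% of all probes. A difference between the slow and fast lists was not tested. Myh4, the fastest myosin heavy chain, was at -3.26, 6.41 and 8.55 on the low arrays and at 6.26, 6.99 and 7.65 on the high ones. The medians were close, the low group held both the lowest and the highest arrays, and the difference of 2.13 ± 0.79 had an adjusted p of 0.284. Tnnt3, the fast troponin T, was at -2.82, 6.83 and 8.10 against 6.66, 7.15 and 7.80 (difference 1.88 ± 0.73, adjusted p = 0.316). Myh2, the heavy chain of fast oxidative fibres, came nearest to the limit with 4.29 ± 0.85 and an adjusted p of 0.0457, and its other probe had an adjusted p of 0.0149. On Myh2 the low arrays ran from -8.54 to 4.29 with a median of 0.81, and the high arrays from 3.43 to 5.74 with a median of 4.62.

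Behind this lay low arrays of different kinds. On 4 of them (760 kBq rat 3, 88 kBq rat 3, 9 kBq rat 2 and 4700 kBq rat 2) the mean level of the fast list was between -3.34 and 3.37, and on the other 8 it was between 5.63 and 7.58, beside 6.39 to 7.42 on the high arrays. All 4 arrays with little fast muscle had Iyd above -2, and 7 of the 8 others had it below. On the 8 arrays with more fast muscle, 4 of the 13 slow genes lay below every high array in all 8. These were Tnnc1, Myl2, Tnnt1 and Tnni1, for which the lack of overlap over all 12 low arrays fixes that count. Myh7b and Ankrd2 lay below on 6 of the 8, Atp2a2 and Myl3 on 5, and the other 5 slow genes, Casq2, Csrp3, Hspb7, Pln and Tpm3, on at most 2. Of the 13 fast genes 12 lay below on at most 2 of the 8, and Myh2 on 5. On the 4 other arrays all 13 fast genes and 10 of the 13 slow genes lay below the high range. This split of the low arrays was made after the values were seen and is a description.

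**Figure D4:**
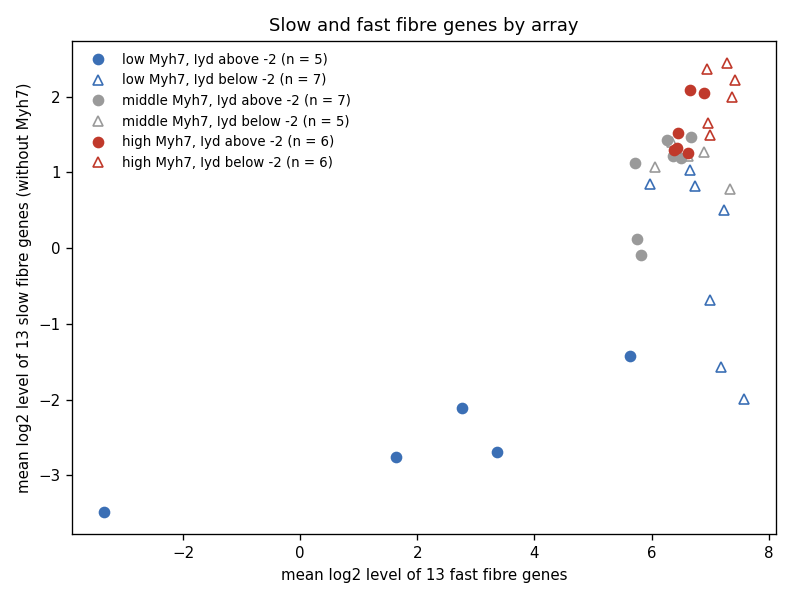
Mean log2 level of the 13 slow fibre genes without Myh7 (vertical axis) against that of the 13 fast fibre genes (horizontal axis), with 1 point an array, coloured by Myh7 class with filled circles where Iyd was above -2 and open triangles where it was below. The high arrays sit together at the top right, 4 low arrays lie to the left with little fast muscle, and the other 8 low arrays have fast means of 5.63 to 7.58 with slow means of -1.99 to 1.02.

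Without the 4 low arrays with little fast muscle, the median difference of the fast list was 0.17 and that of the slow list 1.61, and 5 probes passed: Myh6 with 5.29 (adjusted p = 4.85e-09), Tnnc1 with 4.19 (adjusted p = 4.85e-09), Myl2 with 4.29 (adjusted p = 0.00317), A_64_P145857 with 3.24 (adjusted p = 4.40e-05) and A_44_P389448 with 3.44 (adjusted p = 4.01e-04). Those 4 arrays were left out for their low fast mean, so a smaller fast list median was fixed in advance. It is a description and not a contrast with the slow list. In the same fit the Tnnt1 probes kept differences of 4.40 and 4.14 with adjusted p = 0.0295 for both, and Tnni1 one of 4.08 with adjusted p = 0.0625. Within the arrays with Iyd above -2, 6 high against 5 low, the slow list had a median difference of 4.35 and the fast list of 3.56. Of the 14 probes only Tnnc1 passed there (6.38, adjusted p = 0.00946), while Myh6 had a difference of 7.43 with adjusted p = 0.0139. Within those with Iyd below -2, 6 high against 7 low, these were 1.67 and 0.13, and Myh6 (5.61) and Tnnc1 (4.09) passed the limits, both with adjusted p = 1.81e-05. There Myl2 had a difference of 4.29 with adjusted p = 0.720, and the Tnnt1 probes and Tnni1 an adjusted p of 0.963. The difference between the sets of arrays was not tested.

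Of 12 sarcomere genes that all fibres share, none passed. Their median difference was 2.09, with 11 positive and 1 negative. At an unadjusted p under 0.05, 11 were higher, beside 6.37% of all probes. Acta1, the skeletal actin, had a difference of 2.16 ± 0.84 (adjusted p = 0.313), Actn2, the alpha-actinin of the Z-disc, 2.44 ± 0.65 (adjusted p = 0.224), and Lmod2, which lengthens thin filaments, 1.34 ± 0.27 (adjusted p = 0.0617). The 11 genes of excitation and calcium release had a median of 2.04 and the 10 of glycolysis in muscle 1.57, with none called. The 11 oxidative genes had a median of 1.13. Among these, Fabp3, the fatty acid carrier of heart and slow muscle, was at 1.88 ± 0.35 with an adjusted p of 0.0293, and Mb, myoglobin, at 2.05 with an adjusted p of 0.225. The 10 genes of the nerve-muscle synapse had a median of 0.88, with Chrnd, the delta subunit of the acetylcholine receptor, at 2.07, and the 6 myogenic factors 1.34, with Myod1 at 2.65 and Myf6 at 2.55. None of these lists had a call.

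**Figure D5:**
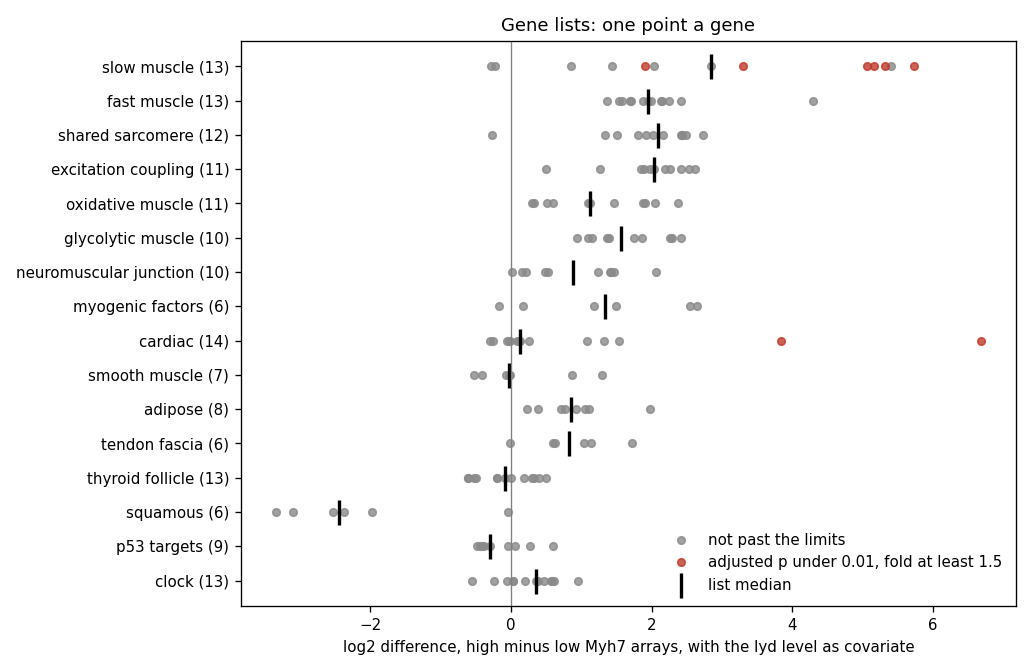
Log2 difference between high and low Myh7 arrays with the Iyd level as covariate (horizontal axis) for the genes of 16 lists (vertical axis, number of genes with a probe in brackets), with 1 point a gene, red where it passed the limits, and a black bar at the list median. Calls are seen in the slow muscle and cardiac lists, the other skeletal muscle lists are shifted to the right without calls, and the smooth muscle and thyroid follicle lists have medians near 0.

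Slow fibres and heart share isoforms, so genes of the heart were listed too. Of 14 cardiac genes 2 passed, Myh6 and Myl4, and the list's median difference was 0.12. Of the 14, 8 were well above background on all 12 high arrays, and the same number on all 12 low arrays, and 1 gene, Tbx20, was so on no array compared. Nppa, the atrial natriuretic peptide, was well above background on 1 high and 2 low arrays, Mybpc3, the cardiac myosin-binding protein, on 1 and 0. Tnnt2, the cardiac troponin T, was at -0.25 ± 0.28 (adjusted p = 0.835). Nkx2-5, a transcription factor of heart and thyroid, was at 1.53 ± 0.44 (adjusted p = 0.224), and Actc1, the cardiac actin that skeletal muscle also makes, at 1.32 ± 0.83 (adjusted p = 0.610).

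Among markers of other tissues, squamous epithelium genes had the largest shift the other way, a median of -2.45 over 6 genes, with no call. Of these, 1 was lower at an unadjusted p under 0.05, beside 4.57% of all probes. Krt13, a keratin of wet squamous epithelium, was at -7.44, -1.78 and 6.99 on the low arrays and at -7.73, -5.24 and 5.91 on the high arrays. Its groups overlapped over almost their whole range, and the difference of -3.34 ± 1.87 had an adjusted p of 0.546. Krt5, a keratin of basal cells, was at -2.37 ± 1.26 (adjusted p = 0.515). The summed level of the list, as a mean over genes, was -4.38 to 4.22 on the low arrays and -4.85 to 3.39 on the high ones, and its part in the result was not tested. The adipose and tendon lists had medians of 0.85 and 0.83, and smooth muscle -0.03. At an unadjusted p under 0.05, 4 of 8 adipose, 2 of 6 tendon and 2 of 7 smooth muscle genes were higher, beside 6.37% of all probes, and their part in the result was not tested. The medians of C cell, parathyroid, cartilage, airway, lymphoid, erythroid, nerve and endothelium genes lay between -0.30 and 0.38. Targets of p53, which respond to radiation, had a median of -0.30, with 3 of 9 lower at an unadjusted p under 0.05, beside 4.57% of all probes. The high arrays held 3 of the 0 kBq group and none of the 4700 kBq group. The low arrays held 2 at 4700 kBq and none at 0 kBq, so Myh7 level and treatment cannot be told apart for this shift. Clock genes, which follow the time of day, had a median of 0.36, with 1 of 13 lower at that p. None of these lists had a call.

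With the treatment group as a covariate, 3 probes passed the limits: Tnnc1 at 5.23 (adjusted p = 9.49e-04), Myh6 at 6.91 (adjusted p = 0.00131) and A_64_P145857 at 3.15 (adjusted p = 0.00704). Myl2 then had a difference of 5.40 with an adjusted p of 0.143, and the Tnnt1 probes 5.07 and 4.90 with adjusted p of 0.0787 and 0.0814. Within the 6 activities that held both classes, the mean of the high arrays was above that of the low in all 6 for 13 of the 14 probes and in 5 for Ankrd2. For Myh6 the difference within an activity ran from 5.03 to 9.29, for Tnnc1 from 4.06 to 7.05 and for Myl2 from 2.26 to 7.71. The limit is that each of these activities had a single array on at least 1 side. The 14 probes were also called on these same arrays. For the 8 probes whose groups did not overlap, a positive sign within an activity was fixed in advance.

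With the slide as a block, 30 probes passed, the 14 among them, and the added ones included Myl3 (6.39, adjusted p = 0.00581), Myh2 (4.81, adjusted p = 0.00208), Casq2 (2.38, adjusted p = 0.00208), Chrnd (2.34, adjusted p = 0.00377), Fabp3 (1.98, adjusted p = 0.00595) and Csrp3 (3.43, adjusted p = 0.00987). Within a slide the difference of the means was positive on all 5 slides for 13 of the 14 probes, with 3.87 to 7.18 for Tnnc1 and 4.68 to 9.34 for Myh6. The Myh3 probe A_64_P031995 was the exception, with -0.20 on 1 slide. Here too the sign was fixed in advance for the 8 probes without overlap, so these counts are a description.

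The 12 middle arrays gave values that the choice of high and low arrays did not use, though Myh7 itself sets the axis there too. Among all probes 1 had a slope on the Myh7 level at an adjusted p under 0.01 (0.00329%), and this was Myh6, at 0.97 ± 0.05 log2 units per log2 unit of Myh7 (limma, adjusted p = 2.03e-05). Signal of Myh7 RNA on the Myh6 probe was not tested, so this slope cannot be told apart from the ranking gene measured again. At an unadjusted p under 0.05, 310 probes had a positive slope (1.02%) and 987 a negative one (3.25%). Of the 14 probes, 12 had a positive slope, 8 of them at an unadjusted p under 0.05. Myl2 had a slope of 0.87 ± 0.11 (adjusted p = 0.0743), Tnnc1 of 0.66 ± 0.09 (adjusted p = 0.143) and Ankrd2 of 1.12 ± 0.28 (adjusted p = 0.957). The Tnnt1 probe A_64_P058869 had 0.45 ± 0.15 and Tnni1 0.37 ± 0.23, both with an adjusted p of 0.957. Atp2a2 was at 0.07 ± 0.14, Myl4 at -0.15 ± 0.43 and the Myh3 probe at -0.56 ± 0.28, without a call.

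Some genes of the muscle lists had the opposite sign in the middle arrays. Sln, sarcolipin, a small inhibitor of the calcium pump, had a slope of -1.93, and Actc1 one of -1.52, both with an adjusted p of 0.957, and unadjusted p of 0.00452 and 0.00652. In the comparison of high and low arrays their differences were 2.04 (adjusted p = 0.554) and 1.32 (adjusted p = 0.610). Neither passed a test in either set of arrays.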

How the data were processed

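Rat thyroid RNA was measured on 36 Agilent 1-colour arrays of 62976 spots, in 9 groups of 4 rats taken from the labels. The authors deposited scanner files with processed spot intensity (Agilent Feature Extraction 10.7.3.1) and a table of quantile normalized intensities. The log2 of that table served as an alternative. The number of arrays limits the precision. Outlier and control spots were left out, spots of a probe averaged, and each array's 75th percentile of log2 intensity subtracted. Of 30367 probes 17998 were matched by accession to a RefSeq gene. The Myh7 and Iyd probes stood outside the test, which used limma 3.58.1 in R 4.3.3 on 30365 probes with the Iyd level as covariate. Benjamini-Hochberg adjustment ran over all of these, and a call needed a 1.5-fold difference or more with an adjusted p under 0.01. The 4 rats of a group were separate animals. On simulated data for this comparison the fit recovered 48% of 50 probes changed by 1 on the log2 scale. It recovered 74% of 50 changed by 2 and 98% of 50 changed by 4, with 3 false calls among 30277 probes. Sorted by size in SD, 155 of 164 changes over 2 SD were recovered and 5 of 36 up to 2 SD. The members and the 25 gene lists were chosen with earlier results of these data known. Genes named were the markers, list members and called genes with a symbol, and unnamed called probes were added after their values were seen. Alternatives covered scaling, background (normexp on median signals), filters, covariates, blocks, array choice and leaving out each array.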

Additional observations from a re-analysis of the deposited data

Results flagged for a closer look

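In 27 sets of 4 rats (9 groups and the genes Myh7, Tnnc1 and Myl2), 1 rat lay far from the other 3 in 3 cases. Chance gives such a rat in about 1 in 20 independent sets, but these sets share rats, so the 3 cases are not set against that share, and Myh7, which chose the arrays, is given as a value only. The Myh7 level of rat 1 of the 340 kBq group was -2.02, against 4.32 to 5.23 in the others. The Myl2 level of rat 3 of the 760 kBq group was -8.26, against 0.97 to 2.81. In the 0 kBq group the Myl2 level of rat 4 was 0.32, against 2.70 to 3.03.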

How the results depend on the processing

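The 14 higher calls became 3 with treatment as a covariate, 30 with the slide as a block, 22 with normexp, 23 with array weights (and 1 lower), 26 at an adjusted p under 0.05, and 435 higher and 4 lower with Myh7 as a continuous term over 36 arrays. Without the Iyd covariate 10 of the 14 probes kept their call. Atp2a2 (limma, adjusted p = 0.0260), A_64_P120327 (0.0447), Myl4 (0.0775) and the Myh3 probe A_64_P031995 (0.885) lost it. Alternatives chosen after seeing the data gave 8 with the fast muscle mean as covariate, 5 without the 4 low arrays with little fast muscle, and 3 and 2 within arrays with Iyd above and below -2. In the last 3 settings the slow list median was 1.61, 4.35 and 1.67. The cardiac median was 0.79 after a filter on dim probes. Signs turned, without a call, for Pln (0.38 with treatment as covariate, 0.039 with 18 against 18 arrays), for Myh4 (-0.081), Tnnt3 (-0.19) and Acta1 (-0.22) with the fast muscle covariate, and for Tnnt3 (-0.056) with Iyd below -2. Myh4 and Tnnt3 are part of the fast muscle mean, so with that covariate the model itself holds the fast list near 0. For the other turns the cause was not tested. With each array left out, calls ranged from 12 to 24 higher and from 0 to 0 lower, the highest without 760 kBq rat 1, where Myl3 (5.83, adjusted p = 0.00794), Casq2 (2.26, adjusted p = 0.00578) and Fabp3 (2.06, adjusted p = 0.00292) passed too. List medians then ranged from 2.45 to 3.17 (slow), 1.26 to 2.12 (fast), 1.59 to 2.30 (shared sarcomere), -0.02 to 0.21 (cardiac), -3.05 to -2.02 (squamous) and -0.14 to -0.04 (thyroid). Rat numbers did not pair samples (median correlation -0.026 for the same number and -0.030 for others), and a replicate block gave 19 higher calls. Signal near background limits the dim probes.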
